A study of Apis mellifera with 2 samples.

Results

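Apd-2, Cpap3-d, Cpap3-b and CPF2 are 4 honey bee genes for proteins of the cuticle, measured here in RNA from circulating blood cells. They were picked by name from 9935 genes with a deposited value, because earlier results of the same data placed them on different sides of the adult and larval libraries. They are represented by 6 of 23471 coding sequences. The values that separate the libraries are therefore what chose these genes and are given as a description, with no test.

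The series asked which surface molecules honey bee hemocytes carry, and its sequencing part holds 2 libraries of polyadenylated RNA from Apis mellifera carnica, with 1 library per stage. The adult library came from bees less than 1 day old, collected at intervals of 24 h from closed brood held at 34 °C. Worker larvae of 8 days, in the fifth instar, were taken from the hive and bled at once for the larval library. Both came from the hemocyte pellet of 320 µL of hemolymph, and the sources used here do not give the number of insects pooled. Each value thus compares a single adult library with a single larval library, and stage cannot be told apart from any other difference between the preparations. In RNA from a mixed cell pellet, fewer cells of a type and less RNA per cell cannot be told apart either.

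The insect cuticle is a layered coat of chitin fibres set in protein, secreted by the epidermis and by the linings of the tracheae, the foregut and the hindgut, and it is rebuilt at each moult. Its proteins fall into families. Apidermins, to which Apd-2 belongs, are short hydrophobic cuticle proteins described in the honey bee. Proteins of the Cpap3 family carry peritrophin-type domains that bind chitin and are called obstructors in Drosophila, where members of the family help to organise the chitin matrix. CPF proteins are a small family named for a conserved stretch of sequence, while the large CPR family carries a chitin-binding consensus.

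Levels are given as estimated counts, as CPM of the scaled library (scaled CPM, counts relative to the library total) and, between genes, as the authors' TPM, which also divide by the effective length of the coding sequence. The libraries held 16880782 (adult) and 17657461 (larva) estimated counts. Intervals are exact 95% intervals and cover counting error only, and where no count was found the limit is 3 counts, which is 0.157 scaled CPM for the adult and 0.192 scaled CPM for the larval library. A gene was called far apart when the libraries differed at least 4-fold, the interval bound nearest to a ratio of 1 was also at 4-fold or more, and the higher library reached 10 scaled CPM. All 4 genes had at least 10 counts over both libraries, as did 8798 genes in all. By this rule Apd-2 and Cpap3-d were called on the adult side and Cpap3-b on the larval side. Across all genes compared, 3.14% were called for the adult library and 2.72% for the larval one, and nothing is read from the 3 of 4 because the genes were chosen on this contrast.

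**Figure D1:**
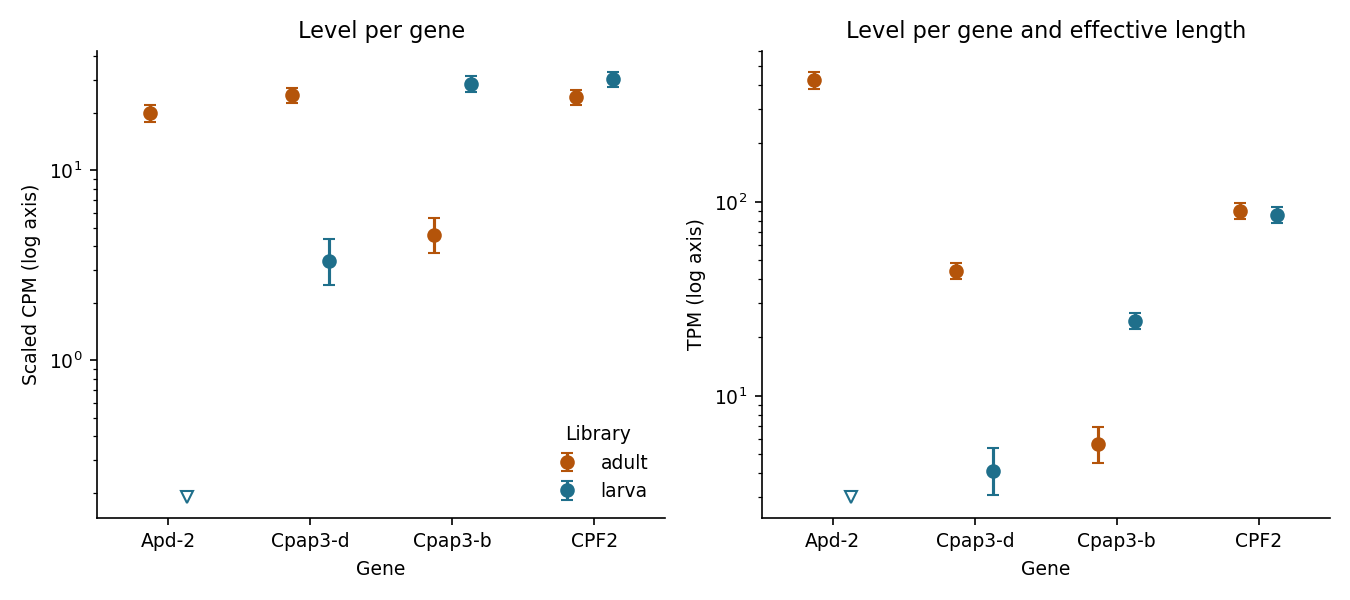
Level of each gene in the adult and the larval library, as scaled CPM (left panel, log axis) and as TPM (right panel, log axis). Points are single libraries, bars are exact 95% counting intervals and open triangles mark the limit of 3 counts where none was found. Apd-2 has no larval count, Cpap3-d and Cpap3-b lie on opposite sides at 25.0 (adult) against 3.32 (larva) and 4.57 (adult) against 28.6 (larva) scaled CPM, and the points of CPF2 lie close together.

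Apd-2 had 381 estimated counts in the adult library and 0 in the larval library. On the scaled CPM scale the adult level was 20.0 (18.0 to 22.1). The larval level was 0, with a limit of 0.192 at 3 counts and an exact upper end of 0.236. Set against that limit of 3 larval counts, the adult level was 104-fold higher, and the lower end of the exact interval of the ratio was 84.4. Genes with no larval count were rare among those compared, at 0.625%, and genes with no adult count made up 0.227%. Of the 6764 genes at 10 scaled CPM or more in the adult library, 6 had no larval count, and 1 of these had more adult counts than Apd-2.

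The Apd-2 counts came almost entirely from the longer of the 2 annotated coding sequences. That sequence, of 234 bases, took 365 of the adult counts or 95.8% (93.3 to 97.6), and the other, of 231 bases, took 16.0. Both are among the shortest coding sequences in the data: 0.426% of all are shorter than 234 bases, against a median of 1614. The effective length of the longer sequence was 36.2 bases in the adult library and 32.6 bases in the larval one, so a single count was worth 1.11 TPM in the adult library and 1.01 TPM in the larval library. The adult level of 422 TPM therefore rested on 381 counts, and the limit of 3 larval counts stood at 3.02 TPM. By TPM, Apd-2 stood at rank 398 of 9384 genes in the adult library and by scaled CPM at rank 5913 of 9383.

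The other apidermin genes lay on the same side. Apd-1 had 102 adult and 0 larval counts, and its adult level was 27.9-fold the limit of 3 larval counts (lower end of the exact interval 22.3). Apd-3 had 65 adult and 0 larval counts (17.8-fold at that limit, exact lower end 14.1), while a second gene listed as apd-3 had no count in either library. Apd-2 held 69.5% (65.5 to 73.4) of the 548 apidermin counts of the adult library. Apd-1 and Apd-3 stayed below the 10 scaled CPM of the size rule, at 5.35 and 3.41 in the adult library. All 3 apidermins with counts were thus found in the adult library without a single larval count. Apd-1 and Apd-3 were first looked at with the values in view, and they are the nearest coding genes to Apd-2 on 1 side.

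Cpap3-d, a chitin-binding member of the obstructor type, had 476 estimated counts in the adult library and 52 in the larval library. These are 25.0 scaled CPM (22.8 to 27.3) in the adult library and 3.32 scaled CPM (2.48 to 4.36) in the larval library, a ratio of 7.52 (5.64 to 10.2), with no overlap of the counting intervals. Cpap3-b, from the same family, had 87 counts in the adult library and 448 in the larval library. Its levels were 4.57 scaled CPM (3.66 to 5.63) in the adult library and 28.6 scaled CPM (26.0 to 31.4) in the larval library, a ratio of adult over larva of 0.159 (0.125 to 0.201). The gene with the lower count of the pair thus changed between the libraries: Cpap3-b was the lower one in the adult library and Cpap3-d in the larval one.

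The pair can also be read inside each library, where no scaling between libraries enters. Counts of Cpap3-d over counts of Cpap3-b came to 5.47 (4.35 to 6.96) in the adult library and 0.116 (0.0854 to 0.155) in the larval library. By TPM, which takes their coding lengths of 699 and 885 bases into account, the ratio of Cpap3-d over Cpap3-b was 7.82 in the adult library and 0.168 in the larval library. The 2 count ratios differed 47.1-fold (32.2 to 69.3). This restates the contrast between libraries on which the pair was chosen and adds no separate evidence. Each of these genes has 1 annotated coding sequence, so no count was divided among isoforms.

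Cpap3-c, the remaining family member with a symbol, had 9 counts in the adult library and 61 in the larval library. Counts of Cpap3-b over Cpap3-c stood at 9.67 (4.86 to 21.8) in the adult library and 7.34 (5.61 to 9.76) in the larval library, and the interval of the ratio between these values, 0.619 to 3.13, includes 1. Counts of Cpap3-d over Cpap3-c stood at 52.9 (27.6 to 116) in the adult library and 0.852 (0.577 to 1.25) in the larval library. Within the family, Cpap3-b and Cpap3-c thus lay on the larval side and Cpap3-d on the adult side.

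CPF2 had nearly the same number of estimated counts in both libraries, 462 in the adult library and 472 in the larval one. After scaling these were 24.2 scaled CPM (22.1 to 26.6) in the adult library and 30.2 scaled CPM (27.5 to 33.0) in the larval library, a ratio of adult over larva of 0.804 (0.705 to 0.916). The side of CPF2 depended on the scaling: the ratio was 1.02 (0.899 to 1.17) with plain library totals and 1.05 (0.920 to 1.19) with the authors' TPM. It was the one gene of the 4 whose side changed with the scaling.

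The counts of CPF2 were divided between 2 annotated coding sequences of 519 and 360 bases. The longer sequence took 375 of the adult counts, or 81.2% (77.3 to 84.6), and 362 of the larval counts, or 76.7% (72.6 to 80.4). The remainder, 86.9 adult and 110 larval counts, went to the shorter one. These intervals overlap between the libraries, and they do not cover the error of dividing reads between sequences that share bases. By TPM the longer sequence held 65.7% of CPF2 in the adult library and 58.3% in the larval library.

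CPF1, the other gene of the family and the nearest coding gene to CPF2 on 1 side, lay on the larval side. It had 74 counts in the adult library and 319 in the larval library, at 3.88 scaled CPM in the adult library and 20.4 in the larval one, a larval excess of 5.25-fold (4.07 to 6.86). The larval excess of CPF1 was 4.12-fold (3.19 to 5.38) with plain totals and 3.90-fold (3.02 to 5.09) with TPM, and under both it missed the size rule. Counts of CPF2 over CPF1 were 6.24 (4.88 to 8.09) in the adult library and 1.48 (1.28 to 1.71) in the larval library. These count ratios differed 4.22-fold (3.16 to 5.68), and the ratios by TPM differed 4.09-fold.

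**Figure D2:**
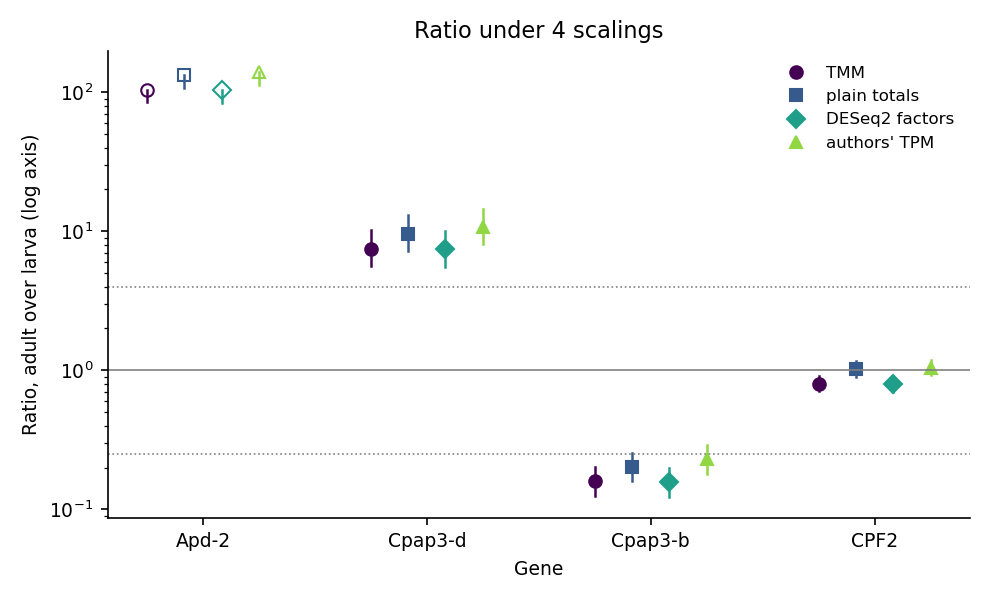
Ratio of adult over larva for each gene (log axis) under 4 ways of scaling the libraries. Points are ratios and lines are exact 95% counting intervals. Open symbols for Apd-2 are ratios at the limit of 3 larval counts. The solid line marks a ratio of 1 and dotted lines mark 4-fold. Apd-2 and Cpap3-d stay above 4-fold, Cpap3-b stays below 1, and CPF2 lies on either side of 1.

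The choice of scaling also touched Cpap3-b. Its larval excess was 6.27-fold (4.97 to 7.98) as reported, 4.92-fold (3.91 to 6.27) with plain totals and 4.34-fold (3.45 to 5.53) with TPM. Under plain totals and TPM its interval reached below 4-fold and Cpap3-b was no longer called, although it stayed on the larval side. Cpap3-d was 9.58-fold higher in the adult library with plain totals and 10.7-fold higher with TPM, and kept its call. The median log2 fold over all genes compared was 0.02 as scaled here, 0.37 with plain totals and 0.55 with TPM, so both alternatives moved genes as a whole toward the adult side.

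Per length, the 4 genes stood in a different order in each library. In the adult library Apd-2 was highest at 422 TPM (381 to 467), followed by CPF2 at 89.8 (81.8 to 98.3), Cpap3-d at 44.0 (40.1 to 48.1) and Cpap3-b at 5.63 (4.51 to 6.94). In the larval library CPF2 was highest at 85.6 TPM (78.1 to 93.7), followed by Cpap3-b at 24.4 (22.2 to 26.8) and Cpap3-d at 4.10 (3.06 to 5.38), while Apd-2 had no larval count (limit 3.02) and was not ranked against Cpap3-d. The intervals of neighbouring genes with counts did not overlap in either library, but they do not cover error in the effective length. By scaled CPM, Apd-2 (20.0) stood below Cpap3-d (25.0) and CPF2 (24.2) in the adult library. For scale, the median gene with a value above 0 stood at 24.5 TPM in the adult library and 16.2 TPM in the larval one. Apd-2 lay at or above 95.8% of such genes in the adult library, CPF2 at or above 80.6% in the adult library and 83.5% in the larval one, Cpap3-d at or above 65.5% in the adult and 28.3% in larvae, and Cpap3-b at or above 26.0% in the adult and 59.5% in larvae.

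As a set, the 4 genes held 1406 counts in the adult library and 972 in the larval library. Cpap3-d and CPF2 gave 33.9% (31.4 to 36.4) and 32.9% (30.4 to 35.4) of the adult counts, with Apd-2 at 27.1% (24.8 to 29.5) and Cpap3-b at 6.19% (4.99 to 7.58). CPF2 and Cpap3-b gave 48.6% (45.4 to 51.8) and 46.1% (42.9 to 49.3) of the larval counts, with Cpap3-d at 5.35% (4.02 to 6.96). CPF2 was thus the one gene of the set that gave a large share of the counts in both libraries.

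Among genes with a cuticle symbol, the 4 genes carried most of the reads. The list of 27 cuticle genes (apidermins, Cpap3, CPF and CPR) made up 0.0134% of adult and 0.0102% of larval counts. The 4 genes gave 62.3% (60.2 to 64.3) of the list's adult counts and 53.9% (51.5 to 56.2) of its larval counts. CPR4, of the chitin-binding CPR family, was the most abundant of the rest by TPM, at 144 TPM in the adult library and 94.7 TPM in the larval one. Its counts of 440 in the adult library and 317 in the larval one gave a ratio of 1.14 (0.984 to 1.32), which does not exclude 1.

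Of the 20 listed genes with at least 10 counts, an interval clear of a ratio of 1 put 6 higher in the adult library and 6 higher in larvae, and 8 could not be placed. Over all genes compared, 41.8% were higher in the adult library and 40.9% in larvae by that criterion. The adult side held Cpap3-d, the 3 apidermins, CPR5 with 25 adult and 3 larval counts, and CPR22 with 18 adult counts and 1 larval count. The larval side held Cpap3-b, Cpap3-c, CPF1, CPF2, CPR21 with 0 adult and 29 larval counts, and CPR18 with 0 adult and 10 larval counts. With plain totals and with TPM the split was 8 adult, 5 larval and 7 unplaced. The median log2 fold of the list was -0.09, beside 0.02 over all genes compared. The CPR family accounted for all 8 unplaced genes, and 6 of its 18 genes had under 10 counts.

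**Figure D3:**
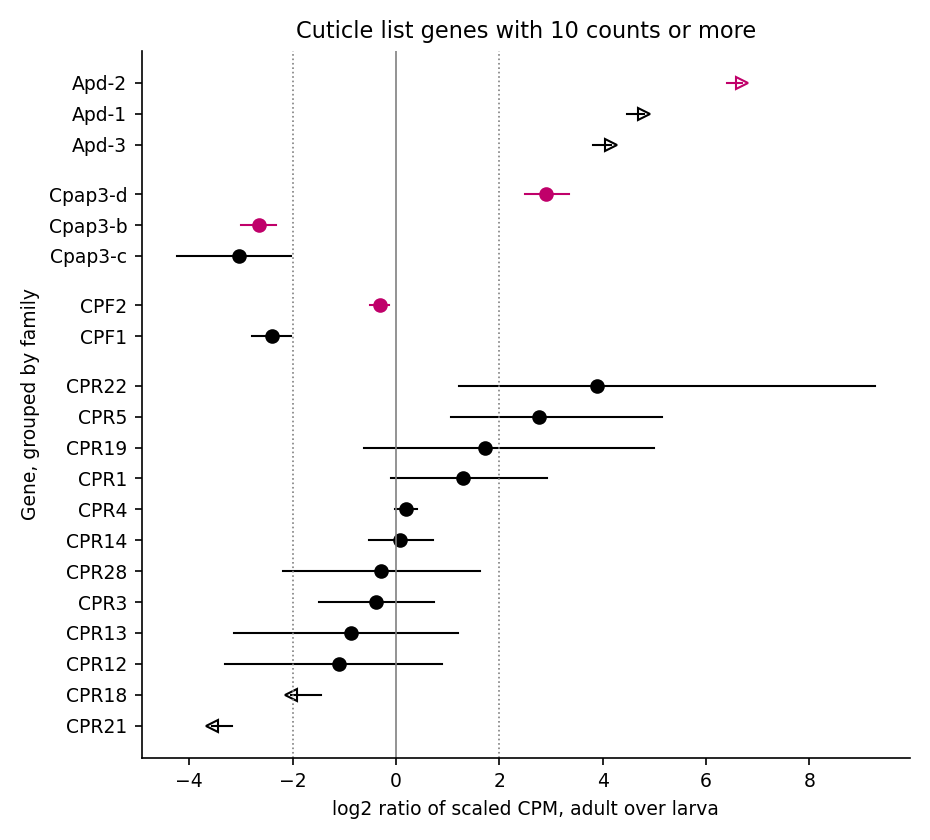
log2 ratio of scaled CPM, adult over larva, for the 20 cuticle list genes with at least 10 counts, grouped by family with the 4 genes in colour. Circles are ratios with exact 95% counting intervals. Open triangles are ratios at the limit of 3 counts for genes with none in 1 library, each with a line to the nearer end of its exact interval. The dotted lines mark 4-fold. The apidermins lie together at the far right, while the Cpap3 family has members on both sides.

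The gene map gave each of the 4 genes different company. The 3 nearest coding genes on each side of Apd-2 were all on the adult side beyond counting error (6 of 6), where 41.8% of all genes compared lay. They include Apd-1 and Apd-3, described above, and LOC727145 with only 14 adult counts and 1 larval count. Next to Apd-2 on the side away from Apd-1, LOC727165 had 28 adult counts and 1 larval count, a ratio of 23.0 (3.80 to 940). Around CPF2, 2 of 6 neighbours were higher in the adult library and 4 in larvae, where 40.9% of all genes compared lay. LOC726616, next to CPF2, had a ratio of adult over larva of 0.857 (0.814 to 0.903).

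Cpap3-d and Cpap3-b lie on the same chromosome and are not neighbours. Of the 6 nearest coding genes of Cpap3-d, 3 were higher in the adult library, 1 in larvae and 2 could not be placed. LOC725831, 1 of these 2, had 1 count in each library and was under the 10 counts needed for comparison. Among all genes compared, 41.8% were higher in the adult library and 40.9% in larvae. LOC726189, next to Cpap3-d, had 310 counts in the adult library and 1873 in the larval one, a larval excess of 7.36-fold (6.52 to 8.32) and the opposite side from Cpap3-d. LOC100577576, on its other side, had 32 adult and 4 larval counts, and its span in the gene table overlaps that of Cpap3-d. Of the 6 nearest to Cpap3-b, 1 was higher in the adult library, 2 in larvae and 3 could not be placed, 1 of which had no count. LOC724900, next to Cpap3-b, had 1 adult and 260 larval counts. LOC410913, whose span overlaps that of Cpap3-b, had 12 adult and 20 larval counts. The overlapping genes had far fewer counts than Cpap3-d and Cpap3-b. Whether they share coding bases with Cpap3-d or Cpap3-b was not tested. The sources used here do not say whether strand was used in counting.

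**Figure D4:**
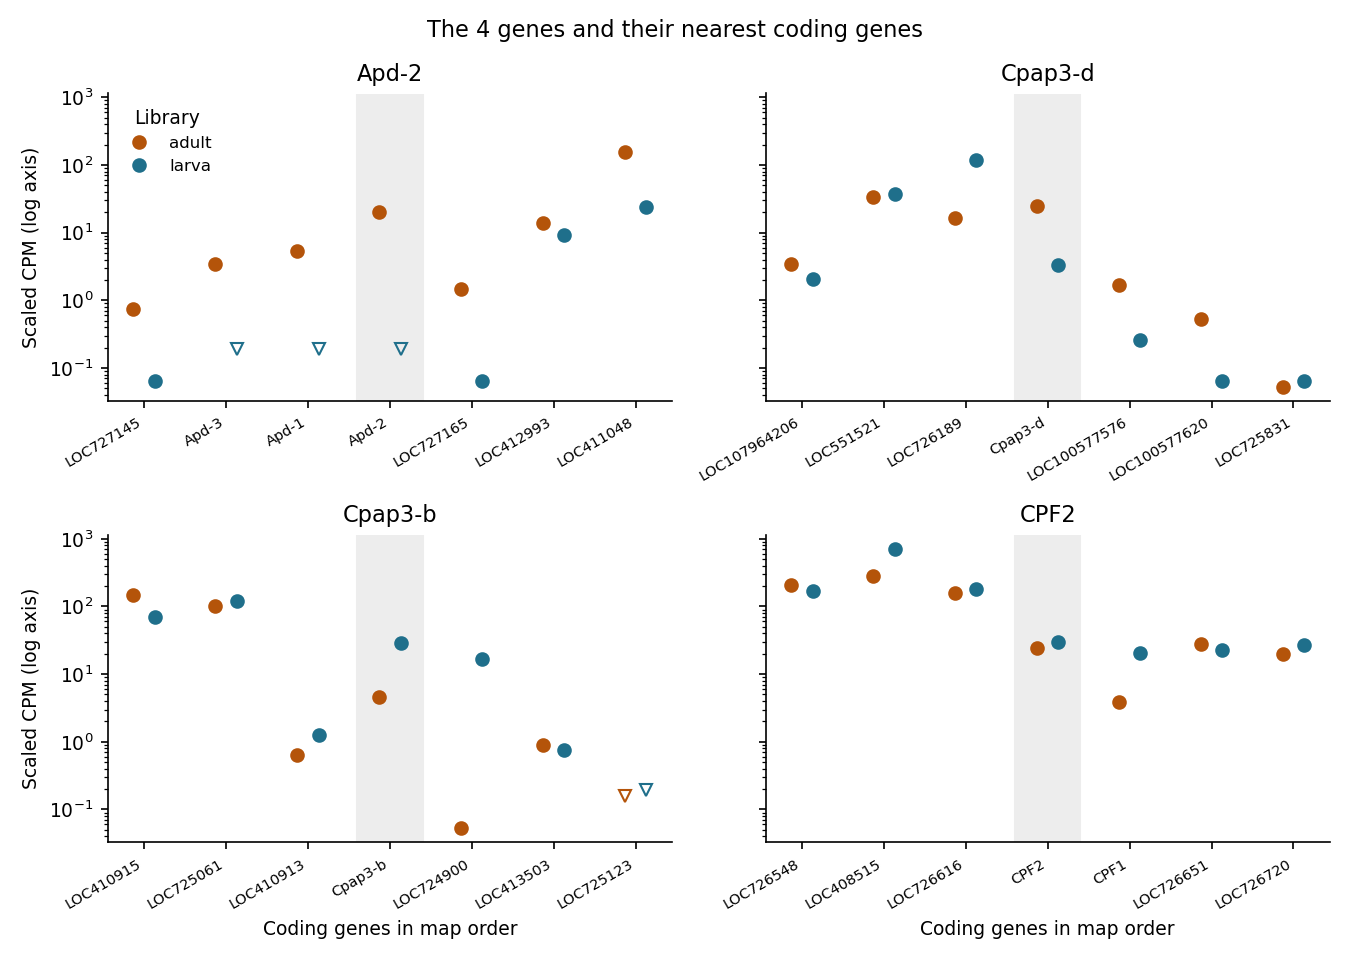
Scaled CPM (log axis) of each of the 4 genes (shaded) and of the 3 nearest coding genes on each side, in map order, in the adult and the larval library. Points are single libraries and open triangles mark the limit of 3 counts where none was found. The genes beside Apd-2 all lie higher in the adult library, while Cpap3-d and Cpap3-b each stand beside a gene with a large larval excess.

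Genes that resembled each of the 4 in level were sought among 394 other genes with a symbol. The distance was taken between log2 scaled CPM of both libraries, with 0.5 CPM added to each level. With that addition, genes at 0, 1 or 2 larval counts lie close together on the larval axis. With only 2 libraries this likeness says that the levels were close and no more. Nearest to Apd-2 were Pgrp-s2, a peptidoglycan recognition protein of immunity (295 adult counts, 1 larval count), Obp3, an odorant-binding protein (310 adult and 2 larval counts), and TyHyd, the tyrosine hydroxylase of the pathway that hardens and darkens cuticle (215 adult and 0 larval counts), at distances of 0.40, 0.44 and 0.80. Nearest to Cpap3-d were CSP3, a chemosensory protein, at 0.45, the neuroligin NLG-4 at 0.64 and c-mos at 0.88. Nearest to Cpap3-b were the silk gene Fibroin2 at 0.21, Obp13 at 0.50 and CPF1 at 0.52. Nearest to CPF2 were Dscam, an immunoglobulin receptor, at 0.09, Sergef at 0.10 and cact1, the inhibitor cactus, at 0.21. CPF2 sat in a dense part of the range, with 16 genes without a symbol closer than Dscam, and Apd-2 in a sparse one, with 3 closer than Pgrp-s2.

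**Figure D5:**
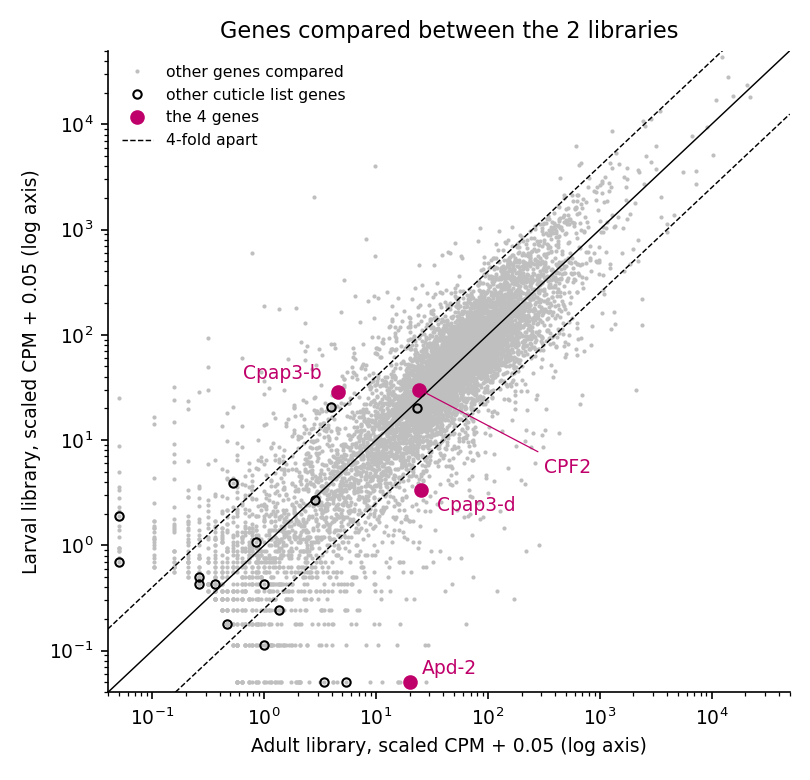
Scaled CPM of the 8798 genes compared, adult library on the horizontal and larval library on the vertical axis (log axes, 0.05 CPM added so that 0 can be drawn). The solid line marks equal levels and dashed lines mark 4-fold. CPF2 lies inside the main cloud, Cpap3-d and Cpap3-b lie outside it on opposite sides, and Apd-2 lies on the lower edge with no larval count.

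Other genes of cuticle hardening and of the moult were read from lists by symbol. In the tanning and pigment list, 2 of 3 genes compared, TyHyd and Y-f, were on the adult side beyond counting error, where 41.8% of all genes lay. TyHyd was 58.8-fold higher at the limit of 3 counts, with an exact lower end of 47.4. The yellow gene Y-y had a ratio of 1.05 (0.725 to 1.54). No gene with a symbol matched the chitin list. Of 12 moult hormone genes, 3 were higher in the adult library, 6 in larvae and 3 could not be placed. The shares over all genes compared were 41.8% (adult) and 40.9% (larva). At its ends stood Eth, the ecdysis triggering hormone, with 1224 adult and 2 larval counts, and Br-c, the ecdysone-induced factor broad complex, with 5 adult and 1466 larval counts. Usp, a subunit of the ecdysone receptor and the most abundant of them by scaled CPM averaged over both libraries, had a 3.46-fold larval excess.

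Markers of the labelled cells and of other tissues were set beside these results. Both hemocyte genes with a symbol were present: PPO, the prophenoloxidase of hemocytes, at 14041 scaled CPM in the adult library and 28019 in the larval one, and Tg at 7.93 in the adult library against 18.7 in larvae. The 7 fat body genes summed to 190 scaled CPM in the adult library and 6888 in the larval one. Of these, 1 (Vg, the yolk precursor) was higher in the adult library and 6 in larvae, among them HEX70b and Hex110. Few genes carried the sums: Vg gave 120 of the adult sum, and HEX70b and Hex110 gave 2034 and 4002 of the larval sum. The oenocyte and cuticular hydrocarbon list held Cyp4g11, on the adult side, and FAR1, on the larval side. It summed to 89.6 scaled CPM in the adult library and 9.72 in the larval one. Cyp4g11 gave 84.6 of the adult sum, and FAR1 gave 7.99 of the larval sum. Of 7 troponin genes of muscle, which summed to 29.3 scaled CPM in the adult library and 43.1 in the larval one, TpnCIIa was higher in the adult library, 4 including TpnCI and TpnCIIb were higher in larvae and 2 could not be placed. The 4 silk gland genes summed to 10.1 scaled CPM in the adult library and 53.7 in the larval one, 3 of them higher in larvae with Fibroin2 the most abundant, and Fibroin4 not placed. Beside these counts, 41.8% of all genes compared were higher in the adult library and 40.9% in larvae. None of the genes of these tissue lists was at 0 in either library. The part that cells of these or other tissues have in the counts of the 4 cuticle genes was not tested.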

How the data were processed

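The authors deposited estimated counts and TPM per RefSeq coding sequence, made with kallisto per the submitters' processing notes and file headers. The sources used here do not give its version, index or genome build, or whether strand was used. Reads were paired, 150 bases per end, from oligo(dT)-selected RNA. The members and lists were chosen with earlier results of these data known.

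Estimated counts were summed to genes through protein identifiers in the RefSeq gene table of assembly Amel_HAv3.1 (all 23471 matched), which also gave neighbours, and rounded. The sums of the 4 genes were whole within 0.001 in both libraries, although kallisto can divide reads among sequences. TMM in edgeR 4.0.16 (R 4.3.3) scaled the libraries, by 1.13 (adult) and 0.886 (larva). The log2 fold used a prior of 0.5 counts. Ratio intervals are Clopper-Pearson on the split of counts, levels exact Poisson, shares exact binomial. They cover counting error only, and PCR copies may make them too narrow even for that. With 1 library per stage no test was run.

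Every member is named. In the cuticle list the genes past the size rule and the 3 highest by mean TPM are named, in other lists the extremes of log2 fold and the most abundant, and further names were chosen with values in view. Interval code was tested on simulated data. Python 3.11.15, numpy 2.4.6, scipy 1.17.1, pandas 2.3.3 and matplotlib 3.10.9 did the rest. DESeq2 1.42.0 size factors served as an alternative.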

Additional observations from a re-analysis of the deposited data

How the results depend on the processing

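No paired analysis was possible because each stage has 1 library. Of 78 alternative values, 58 stayed within the interval of the main value (or within 1.5 times for counts of genes) and 20 moved. No called value changed sign. For most values that interval covers counting error. For the median of the cuticle list it ran from -0.996 to 2.60 and reflects the spread between genes, so a change of sign still counted as within it. Some of the 58 could not have moved. The prior enters neither the numbers of genes called nor the Apd-2 log2 fold at its limit, 6.70. The count filters left 276 (adult) and 239 (larva) genes called, because the CPM minimum of the size rule is stricter. The interval of Apd-2 has no upper end, so a rise could not count as a move. With plain totals and TPM, the log2 fold of Cpap3-b became -2.29 and -2.11 and that of CPF2 0.034 and 0.068, and with TPM that of Cpap3-d became 3.41. Genes called on the adult and larval side numbered 276 and 239, and 433 and 112 with TPM, 879 and 931 at 2-fold, and 120 and 86 at 8-fold, the last 2 by construction. Of the genes called, 53.6% were on the adult side, 72.1% with plain totals and 79.4% with TPM. The share of the longer CPF2 sequence became 65.7% (adult) and 58.3% (larva) by TPM. Ranks by scaled CPM in place of TPM became 5913 for Apd-2 (adult), 5508 and 7337 for Cpap3-d, 7321 and 5075 for Cpap3-b, and 5563 and 4976 for CPF2 (adult and larva), since CPM does not divide by length. The median of the cuticle list was above 0 with plain totals (0.25), TPM (0.34) and at least 100 counts (0.19). Priors of 2 and 5 counts, DESeq2 factors, unrounded sums, totals without mitochondrial genes and 1 coding sequence per gene changed no side of the 4 genes. For Apd-2, 0 larval counts still allow 3 counts.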
